A study of Sus scrofa with 599 samples.

Results

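The greater omentum (GOM) and the retroperitoneal adipose tissue (RAD) of pigs on a normal diet were compared. The members were the libraries whose labels name the normal condition (NC) and 1 of these depots: 9 GOM and 12 RAD libraries of RNA-seq, 21 of the 236 in the series, and 9 GOM and 12 RAD Hi-C samples, 21 of 240, out of 599 samples of all kinds. All came from mature female pigs of the Bama breed, Chinese miniature pigs, that stayed on a normal diet throughout. The study took 4 depots from each pig in 3 nutritional groups, of which WG pigs were fed a high-fat diet to gain weight and WL pigs were then restricted in calories. RNA was taken from pieces of whole fat, and in such bulk samples fewer cells of a type and less RNA per cell cannot be told apart. For Hi-C, the cross-linked tissue was first separated by centrifugation. The labels name its sediment and the methods of the study its upper layer of adipocytes as the part that was lysed, so RNA-seq and Hi-C may not hold the same cells. The study had 12 NC pigs, as many as there are RAD samples, so the GOM and RAD samples share pigs. The labels number the replicates without saying which number is which pig. The tests take all samples as independent, and p-values measure only the spread between samples labelled as replicates.

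The greater omentum is an apron of fat that hangs from the stomach inside the peritoneal cavity. It is covered on both faces by mesothelium, a flat epithelium of mesodermal origin, and holds milky spots, which are clusters of macrophages, B cells and T cells that sample the peritoneal fluid. Retroperitoneal fat lies behind the peritoneum against the dorsal body wall, near the kidneys. Fat of different sites keeps the expression of developmental regulators such as HOX genes, which give cells their position along the body axis, and its adipocytes share the genes of lipid uptake, synthesis and release.

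The upstream sequences of 3 genes on which the results turn are shown first: WT1 and GATA5, transcription factors that were higher in GOM, and EN1, a transcription factor that was higher in RAD. Each line gives the 250 bases before the start of the gene, 5′ to 3′ on the strand of the gene, from RefSeq on Sscrofa11.1, with every CG pair in capitals.
WT1, chr2:28411217-28411466, plus strand: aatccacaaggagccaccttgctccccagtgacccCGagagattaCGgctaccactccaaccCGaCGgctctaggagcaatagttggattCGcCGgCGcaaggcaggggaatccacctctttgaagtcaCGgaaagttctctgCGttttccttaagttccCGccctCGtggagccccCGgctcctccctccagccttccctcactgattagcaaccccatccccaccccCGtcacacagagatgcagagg
GATA5, chr17:61834743-61834992, minus strand: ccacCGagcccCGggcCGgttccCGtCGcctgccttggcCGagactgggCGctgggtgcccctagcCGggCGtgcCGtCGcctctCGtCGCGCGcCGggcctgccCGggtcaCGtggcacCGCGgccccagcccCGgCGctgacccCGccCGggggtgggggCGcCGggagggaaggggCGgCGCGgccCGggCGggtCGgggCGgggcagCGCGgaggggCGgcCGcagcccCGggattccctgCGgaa
EN1, chr15:24408378-24408627, minus strand: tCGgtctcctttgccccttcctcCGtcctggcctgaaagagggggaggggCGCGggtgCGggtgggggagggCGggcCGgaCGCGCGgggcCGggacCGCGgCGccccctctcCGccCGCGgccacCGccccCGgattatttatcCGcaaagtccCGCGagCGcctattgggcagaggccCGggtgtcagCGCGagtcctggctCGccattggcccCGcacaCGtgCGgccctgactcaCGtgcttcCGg
The WT1 window holds 13 CG pairs and has a GC content of 59.2%, and the GATA5 window 39 and 83.2%. The EN1 window holds 32 CG pairs (74.0% GC). Over 10743 genes tested for expression with such a window, the median was 16 CG pairs. It was 14 in 984 genes higher in RAD and 12 in 984 genes higher in GOM. Within the gene groups described here, the median was 23.5 in 14 transcription factors of visceral mesoderm that differed and 5 in 22 macrophage, T cell and B cell genes that differed. The letters AGGTCA, to which nuclear receptors bind, were found on either strand in 10.7% of all windows, in 13.3% of those of genes higher in RAD and in 11.2% of those of genes higher in GOM. The letters AGATAA, to which GATA factors bind, were found in 6.22%, 7.22% and 7.52%. A match of so few letters is a description and not a binding site.

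The estimated counts on protein-coding genes were 7835504 to 17521417 per GOM library (median 9262929) and 8485310 to 20034857 per RAD library (median 11812533). The libraries fall into a set with less than 88% of the summed TPM (a transcript's abundance relative to its library and to its length) on protein-coding genes, with 7 of 9 GOM and 6 of 12 RAD libraries, and a set above it. This library set was a term of every test of expression, and without it 1393 and 1351 genes were called higher in RAD and in GOM. RAD replicates 4, 6 and 10 stood apart, with 2.09%, 3.48% and 4.82% of the TPM on mitochondria-encoded genes against at least 13.6% in the other RAD libraries and 12.1% to 37.4% in GOM. RAD replicate 7 held liver transcripts. Of the Hi-C samples, GOM replicate 8 was the only one nearer to the other depot in most of the bins that differed (45.5% nearer its own depot, against 63.5% to 91.6% in the other 20). Values without these libraries stand beside some of the results and were not given for every count. Index values of single genes are given with all Hi-C samples.

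Expression differed widely between the depots. Of 14081 genes tested, 1169 (8.3%) were higher in RAD and 1259 (8.94%) in GOM, with an adjusted p below 0.05 by edgeR's quasi-likelihood test with Benjamini-Hochberg adjustment and a fold change above 1.5. Such genes are called higher or lower below, and each log2 fold change is RAD over GOM with its standard error, negative where GOM was higher. The median over all genes tested was -0.01. The TPM ranges of the depots did not overlap for 105 genes higher in RAD (0.746%) and 242 higher in GOM (1.72%). Without RAD replicates 4, 6 and 10, 955 and 1130 genes were called, of which 879 and 1080 were among those above.

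Mesothelial genes gave the widest gap. All 10 members that could be tested were higher in GOM, with a median log2 fold change of -5.55 and no overlap of the TPM ranges. Members near 0 in RAD, such as BNC1, were tested only through GOM, so this count and median are in part set by the filter. Their list had 20 genes, of which 12 carried a symbol in the table, and KRT18 and CALB2 were under the limit of detection. The summed TPM of the list was 215 to 773 in GOM (median 354) and 13.7 to 41 in RAD (median 21.8). GPM6A (ENSSSCG00000023328, minus strand of chr15:38258496-38555129 in Sscrofa11.1), a membrane glycoprotein, had 52.3 TPM in the lowest GOM library, a median of 82.5 and 244 in the highest, against 0.209, 0.602 and 2.63 in RAD. Every GOM library was far above every RAD library, with a log2 fold change of -7.16 ± 0.38 (adjusted p = 7.8e-12). KRT8, a keratin of simple epithelia, had 31.5, 101.7 and 178 TPM in GOM and 0.748, 1.33 and 11.2 in RAD (-5.06 ± 0.50, adjusted p = 9.4e-08). The highest RAD library, replicate 7, still lay below the lowest of GOM, and the difference was -5.91 without it. UPK1B, a uroplakin of epithelial membranes, had 21.6, 37.5 and 114 TPM in GOM and 0, 0.237 and 1.82 in RAD. BNC1, a zinc finger factor of epithelia, had 3.03, 8.97 and 36.4 TPM in GOM and at most 0.278 in RAD. The log2 fold changes of UPK1B and BNC1 were -6.86 ± 0.45 and -7.72 ± 0.56, that of UPK1B being -7.46 without RAD replicate 7. The smallest differences in the list were those of CLDN1, a tight junction protein (-2.61 ± 0.35), and PDPN, a mucin-like glycoprotein also found on lymphatic vessels (-2.10 ± 0.28).

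The 15 genes with the largest change toward GOM held 2 epithelial genes outside this list, CLDN3 and DSG2. CLDN3, another claudin of tight junctions, had 17.5, 113 and 342 TPM in GOM and 0, 0.872 and 2.84 in RAD (-6.25 ± 0.54, adjusted p = 1.4e-08). DSG2, a cadherin of desmosomes, differed by -5.32 ± 0.46 (-5.93 without RAD replicate 7). DSP, which anchors keratin filaments at desmosomes and is a member of the mesothelial list, differed by -5.23 ± 0.54, by -6.02 without RAD replicate 7 and by -4.53 without GOM replicate 6. LRP2 (megalin), a large endocytic receptor of absorptive epithelia, had 13.6, 33 and 58.1 TPM in GOM and 0.188, 0.386 and 2.58 in RAD (-5.01 ± 0.46). LRP2, which is not among the 15, was chosen with a list of kidney genes, which also mark mesothelium and other epithelia in part, and 6 of the 8 members of that list were under the limit of detection in both depots.

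Transcription factors of visceral and lateral mesoderm were higher in GOM in 13 of 15 cases, with a median log2 fold change of -3.25, and 10 of the 13 had TPM ranges that did not overlap. BNC1, given with the mesothelial genes, belongs to both lists and is among these 13 and these 10. Like BNC1, GATA5 and BARX1 were near 0 in RAD and were tested only through GOM. The counts and the median are in part set by this filter. WT1 (ENSSSCG00000013316, plus strand of chr2:28411467-28456007), a zinc finger factor of mesothelium and of visceral fat progenitors, had 31.9, 71.8 and 130 TPM in GOM and 2.55, 8.80 and 11.2 in RAD. It was present in all 21 libraries and differed by -3.25 ± 0.25 (adjusted p = 1.8e-09). GATA5 (ENSSSCG00000007538, minus strand of chr17:61824891-61834742), a zinc finger factor of heart and gut mesoderm and mesothelium, had 5.53, 9.95 and 29.9 TPM in GOM and 0, 0.0215 and 0.202 in RAD (-7.60 ± 0.47, adjusted p = 9.3e-11). Its relative GATA6 had 14.6, 27 and 55.8 TPM in GOM and 1.25, 3.76 and 5.77 in RAD, a smaller gap of -2.93 ± 0.24. HAND2, a basic helix-loop-helix factor of heart and lateral mesoderm, had 4.63, 9.12 and 18.7 TPM in GOM and 0, 0.458 and 1.17 in RAD (-4.12 ± 0.38, adjusted p = 3.5e-08). TCF21, of the same class and of the mesenchyme of internal organs, differed by -3.93 ± 0.42. BARX1, a homeobox factor of stomach mesenchyme, had 1.16, 4.07 and 5.55 TPM in GOM and 0 in all 12 RAD libraries. Counted against a floor of 3 estimated counts over the RAD group, it was at least 179-fold higher in GOM, and the median of the list was -3.25 also with BARX1 at this bound. NKX3-2 and ISL1, homeobox factors of the splanchnic mesoderm around the gut, differed by -5.73 ± 0.61 (-6.36 without RAD replicate 2) and -5.38 ± 0.39. MEIS1, a cofactor of HOX proteins, had 52.4, 72.7 and 117 TPM in GOM and 29, 31.8 and 57.8 in RAD. Its ranges overlapped, and its log2 fold change of -1.07 ± 0.12 (adjusted p = 1.1e-06) was among the smallest of the list, with those of MEIS2 (-1.10 ± 0.14), NR2F2 (-1.29 ± 0.24) and FOXF1 (-1.02 ± 0.21). TBX18, a T-box factor of the epicardium and of the mesenchyme of the ureter, went the other way, with 1.27, 2.33 and 6.51 TPM in GOM and 9.75, 12.7 and 23.3 in RAD (2.40 ± 0.23, adjusted p = 8.3e-08).

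**Figure D1:**
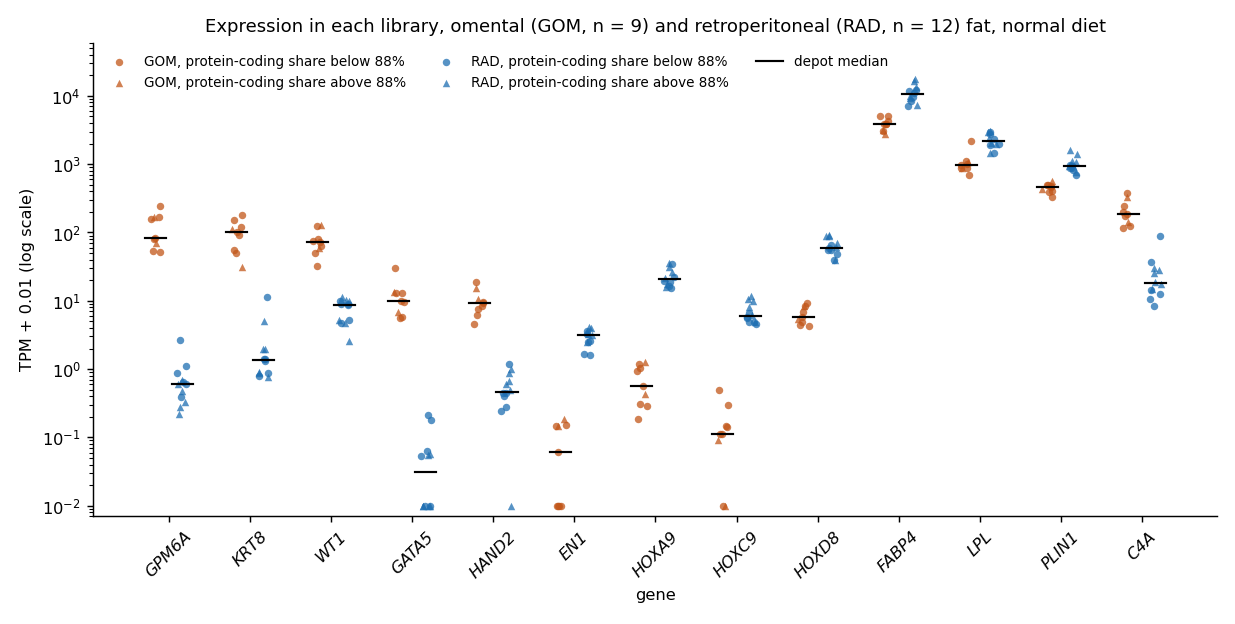
TPM of 13 genes (plus 0.01, log axis) in each of the 9 GOM and 12 RAD libraries, with circles for the library set below 88% of TPM on protein-coding genes, triangles for the set above it and bars at the depot medians. GPM6A, KRT8, WT1, GATA5 and HAND2 lie higher in every GOM library than in any RAD library, the order is turned for EN1, HOXA9, HOXC9, HOXD8, FABP4 and PLIN1, and the ranges of LPL overlap.

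Transcription factors that pattern the body wall and the limbs were higher in RAD in 6 of 8 cases and in GOM in 0, with a median of 1.92. Their list had 31 genes, of which 26 carried a symbol in the table, and only these 8 passed the limit of detection. A member near 0 in GOM, such as EN1, was tested only through RAD. EN1 (ENSSSCG00000015715, minus strand of chr15:24402605-24408377), a homeobox factor of the dermomyotome and of ventral limb ectoderm, had 0, 0.0516 and 0.174 TPM in GOM and 1.57, 3.19 and 4.18 in RAD. It was close to absent in GOM and differed by 4.99 ± 0.43 (adjusted p = 1.2e-08). SHOX2 and EMX2, homeobox factors of limb and of urogenital tissue, differed by 2.59 ± 0.25 and 3.51 ± 0.51. PRRX1, a factor of limb and dermal mesenchyme, had overlapping ranges and a smaller difference (0.96 ± 0.19). IRX3 (2.79 ± 0.68) and OSR2 (1.26 ± 0.39) made up the rest. Among the 15 genes with the largest change toward RAD, ALX1, a homeobox factor of mesenchyme, had at most 0.132 TPM in GOM and 1.6, 5.70 and 11.4 in RAD (6.60 ± 0.44, adjusted p = 2.2e-10). FGF10, the growth factor that starts limb buds and acts on fat progenitors, had 0.226, 0.810 and 1.54 TPM in GOM and 3.29, 8.44 and 27 in RAD (3.66 ± 0.34). ALX1 and FGF10 did not overlap between the depots.

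The 4 HOX clusters did not move as one. The 3 HOXA genes and 3 HOXC genes that were higher in RAD were HOXA5, HOXA9, HOXA10, HOXC8, HOXC9 and HOXC10, while HOXA2, near the anterior end of its cluster, was higher in GOM. HOXA9 had 0.173, 0.550 and 1.26 TPM in GOM and 15.1, 20.6 and 35.8 in RAD (5.02 ± 0.30, adjusted p = 5.1e-11). HOXC9 had 0, 0.104 and 0.483 TPM in GOM and 4.55, 5.97 and 11.8 in RAD (5.39 ± 0.43). HOXA10 and HOXC10 differed by 5.22 ± 0.41 and 6.59 ± 0.71, the latter by 7.45 without GOM replicate 7. HOXA5, in the middle of the cluster, overlapped between the depots and differed by 0.81 ± 0.24, and HOXA2 by -1.85 ± 0.30. All 4 HOXD genes tested were higher in RAD. Of these, HOXD8 had 4.29, 5.70 and 9.13 TPM in GOM and 39.1, 59.9 and 92.7 in RAD (3.31 ± 0.20, adjusted p = 9.3e-11), and HOXD3, HOXD4 and HOXD9 differed by 1.42, 2.03 and 1.58. HOXB genes were the only cluster with none higher in RAD. HOXB8 had 1.40, 3.13 and 6.05 TPM in GOM and 0.173, 0.499 and 1.15 in RAD (-2.38 ± 0.33), and HOXB3 to HOXB6 differed by -0.77 to -1.76. HOXB3 and HOXB4 were close to the limit, and stayed called in 5 and 9 of the 21 comparisons with 1 library left out.

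**Figure D2:**
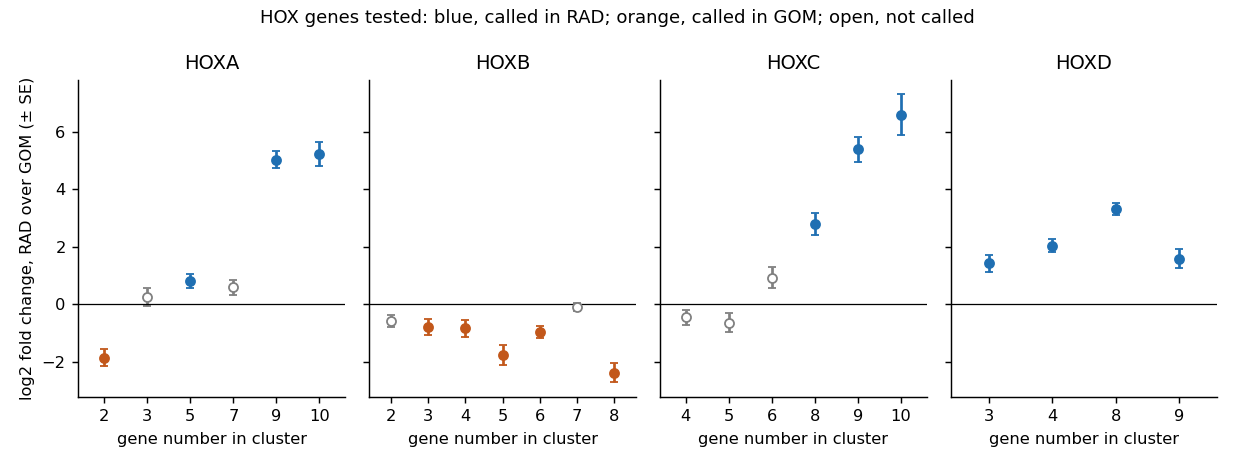
Log2 fold change (RAD over GOM, with the standard error) of the HOX genes tested, by their number in each of the 4 clusters, with filled points for genes that passed the test and open points for the others. HOXA runs from -1.85 at HOXA2 to 5.22 at HOXA10, HOXC and HOXD genes that passed lie above 0, and HOXB genes that passed lie below 0.

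Many genes of fat storage were higher in RAD. Of 19 genes of triglyceride synthesis and fatty acid uptake, 11 were higher in RAD and 0 in GOM (median 0.99). Of 14 genes of de novo lipogenesis, 10 were higher in RAD (0.96), and of 19 genes of lipolysis and the lipid droplet, 10 were higher in RAD and 1 in GOM (0.85). FABP4 (ENSSSCG00000040681, plus strand of chr4:55096400-55101209), a fatty acid carrier of adipocytes, had 2805, 3847 and 5117 TPM in GOM and 7071, 10512 and 17936 in RAD (1.6 ± 0.21, adjusted p = 6.4e-06). The ranges did not overlap. LPL, the lipase that frees fatty acids from circulating triglyceride, had 692, 966 and 2149 TPM in GOM and 1464, 2172 and 3086 in RAD (1.16 ± 0.19, adjusted p = 9.7e-05), and only the highest GOM library reached the RAD range. GPIHBP1, which carries LPL to the capillary wall, had 54.2, 115 and 122 TPM in GOM and 155, 211 and 470 in RAD (1.16 ± 0.20). GPD1, which makes glycerol phosphate for triglyceride, had 45.5, 52.6 and 88.6 TPM in GOM and 92.1, 149 and 685 in RAD (1.75 ± 0.34). ACSL1, which activates fatty acids, and DGAT2, which joins the last fatty acid to triglyceride, differed by 1.70 ± 0.26 and 1.70 ± 0.39. PCK1, which feeds glycerol synthesis in fat, differed by 2.65 ± 0.57, with RAD libraries from 4.61 to 330 TPM.

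Among lipid droplet genes, PLIN1, the coat protein of the droplet, had 331, 469 and 573 TPM in GOM and 699, 926 and 1590 in RAD (1.16 ± 0.16, adjusted p = 8.8e-06). MGLL, the lipase of monoglycerides, had 82.6, 109 and 147 TPM in GOM and 176, 216 and 277 in RAD (1.09 ± 0.12, adjusted p = 6.1e-07). Neither PLIN1 nor MGLL overlapped between the depots. LIPE, the hormone-sensitive lipase, and CIDEC, which fuses droplets, differed by 1.17 ± 0.18 and 1.15 ± 0.24. Adrenergic receptors split: ADRB1, which starts lipolysis, was higher in RAD (1.62 ± 0.29), and ADRA2A, which restrains it, was the member higher in GOM, with 0.699, 3.72 and 7.28 TPM against 0.130, 0.627 and 1.85 (-2.47 ± 0.40, adjusted p = 8.0e-05). In lipogenesis, SCD, the desaturase, had 45.7, 152 and 730 TPM in GOM and 79.5, 932 and 2160 in RAD (2.34 ± 0.60, adjusted p = 0.0066), with a wide overlap. FASN, the fatty acid synthase, differed by 1.12 ± 0.32, ELOVL6 by 1.14 ± 0.20, ME1 by 1.21 ± 0.24 and THRSP by 1.53 ± 0.41.

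Of 14 adipogenic transcription factors, 5 were higher in RAD and 0 in GOM (median 0.34), CEBPA by 1.47 ± 0.39 and PPARG by 0.71 ± 0.16. Fatty acid oxidation and thermogenic genes were higher in RAD in 7 of 17 cases, ACADM by 0.77 ± 0.14, and insulin and glucose uptake genes in 5 of 13, IRS2 by 0.94 ± 0.14 and the glucose transporter SLC2A4 by 0.85 ± 0.27. The call of SLC2A4 was lost without GOM replicate 6, GOM replicate 10 or RAD replicate 12. Adipokine genes divided, with 5 of 12 higher in RAD and 2 in GOM. ADIPOQ, adiponectin, had 966, 1810 and 2681 TPM in GOM and 2393, 4454 and 10577 in RAD (1.40 ± 0.24, adjusted p = 1.8e-04), and LEP, leptin, differed by 0.89 ± 0.23. RARRES2, chemerin, and LCN2, a carrier of siderophores, were higher in GOM (-0.89 ± 0.19 and -1.63 ± 0.44). Retinoid genes split as well, with 2 of 10 higher in RAD and 3 in GOM. ALDH1A2, which makes retinoic acid, had 59.0, 100 and 172 TPM in GOM and 9.87, 16.6 and 31.7 in RAD (-2.60 ± 0.24, adjusted p = 3.8e-08), while the related ALDH1A1 was higher in RAD (1.63 ± 0.29).

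Many immune genes were higher in GOM. Of 19 macrophage genes, 10 were higher in GOM and 0 in RAD (median -0.98), or 14 without the library set as a term. Of 12 T cell genes, 9 were higher in GOM (-1.0), or 8 without RAD replicates 4, 6 and 10. Of 11 B cell and plasma cell genes, 5 were higher in GOM (-0.88). MARCO, a scavenger receptor of macrophages at body surfaces, had 0.665, 4.15 and 24.9 TPM in GOM and at most 0.988 in RAD (-4.50 ± 0.73). TIMD4, a receptor of resident peritoneal macrophages, had 1.70, 12.9 and 54.1 TPM in GOM and 0.165, 3.57 and 8.33 in RAD (-2.29 ± 0.55). VSIG4 and C1QB differed by -1.74 ± 0.28 and -1.71 ± 0.30, and the T cell genes CD2 and CD3E by -1.25 ± 0.22 and -1.12 ± 0.26. JCHAIN, which joins antibody chains in plasma cells, had 42.1, 103 and 2311 TPM in GOM and 8.58, 16.7 and 33 in RAD (-4.60 ± 0.55, adjusted p = 1.6e-06). The ranges did not overlap, and 1 GOM library, replicate 6, was far above the other 8. Without it the difference was -3.62 ± 0.54. The B cell gene BANK1 differed by -1.15 ± 0.23.

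Complement genes were mostly higher in GOM, 6 of 11, with 3 higher in RAD (median -1.19). C4A had 118, 186 and 384 TPM in GOM and 8.30, 18 and 89.7 in RAD (-2.87 ± 0.37, adjusted p = 4.9e-06). Every RAD library was below every GOM library. The summed mesothelial genes, given above, were higher in the same libraries, and their part in this difference was not tested. C3, the central component, had 239, 458 and 1515 TPM in GOM and 13.6, 28.6 and 502 in RAD (-2.71 ± 0.57), and CFI, a protease that inactivates it, differed by -2.98 ± 0.54. Without RAD replicate 7, which held liver transcripts, C3 differed by -3.90 ± 0.40 and CFI by -4.20 ± 0.43. SERPING1, the inhibitor of the first component, differed by -1.02 ± 0.18. The count for RAD rested on RAD replicate 7, without which 1 complement gene was higher in RAD and 7 in GOM. The summed TPM of 6 liver genes was 97.7 to 657 in GOM and up to 16927 in RAD, and ALB, albumin, reached 12157 TPM in RAD replicate 7, 1882 in replicate 4 and 1289 in replicate 6. Of the 6, 3 were higher in RAD and 0 without replicate 7. HPX, AMBP, APOH, CPB2, AHSG, ALB, APOB and C6, which stand among the 15 genes with the largest change toward RAD (3.52 to 4.24), are secreted by the liver and were not called without replicate 7. How liver transcripts came into these libraries was not tested.

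Of 12 chemokine genes, 1 was higher in each depot, about the share over all genes tested (8.3% and 8.94%). CCL21, which draws lymphocytes and dendritic cells to lymphatic vessels, had 35.9, 96.9 and 163 TPM in GOM and 1.5, 10.8 and 27.1 in RAD (-2.78 ± 0.41, adjusted p = 3.1e-05), and CXCL2, which draws neutrophils, was higher in RAD (1.13 ± 0.26). Of 11 endothelial genes, 1 was higher in GOM, about the share over all genes tested (8.94%), and 0 in RAD. It was FLT4, the growth factor receptor of lymphatic endothelium, with 2.54, 4.64 and 7.19 TPM in GOM and 0.423, 1.29 and 2.35 in RAD (-1.84 ± 0.26). Its GOM libraries were all above the RAD libraries.

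Matrix genes had no common direction, with 5 of 20 higher in RAD and 4 in GOM (median 0.40). FN1, fibronectin, had 325, 1106 and 4326 TPM in GOM and 71.3, 225 and 366 in RAD (-2.77 ± 0.39, adjusted p = 1.4e-05), and COL12A1 had 55.0, 86.5 and 112 in GOM and 9.24, 23.3 and 41.9 in RAD (-1.75 ± 0.19). COL3A1 and COL4A1, a fibril collagen and a collagen of basement membranes, were higher in RAD (1.16 ± 0.28 and 0.70 ± 0.18). WNT and BMP pathway genes were higher in GOM in 9 of 19 cases and in RAD in 4. BMP3, a BMP ligand that opposes other BMPs, had 8.51, 11.7 and 29.1 TPM in GOM and 0, 0.223 and 0.557 in RAD (-5.96 ± 0.39, adjusted p = 1.7e-10). RSPO3, which amplifies WNT signals, had 27, 41 and 83.6 TPM in GOM and 2.57, 6.77 and 15.9 in RAD (-2.50 ± 0.31). The ligand WNT5A (-2.05 ± 0.28) and the secreted proteins DKK3 (-1.77 ± 0.25) and GREM1, a BMP inhibitor (-2.49 ± 0.41), were also higher in GOM. The ligand WNT2 (3.22 ± 0.51) and the WNT-binding proteins SFRP1 (1.6 ± 0.28) and SFRP4 (1.81 ± 0.33) were higher in RAD. PGR, the progesterone receptor, had 6.23, 9.33 and 12.6 TPM in GOM and 19.9, 27.2 and 43.4 in RAD (1.57 ± 0.17, adjusted p = 3.4e-07), and HSD11B1, which regenerates cortisol, was higher in GOM (-0.70 ± 0.18). Of 8 smooth muscle genes 3 were higher in GOM, among them DES, desmin (-2.12 ± 0.38), or 2 without RAD replicates 4, 6 and 10. Fat progenitor genes were higher in RAD in 3 of 12 cases and in GOM in 1, and immediate early genes, which respond to handling of tissue, were higher in RAD in 4 of 16, or in 7 without RAD replicates 4, 6 and 10. Of 13 mitochondria-encoded genes, 3 blood cell genes and 2 skeletal muscle genes, 0 passed by edgeR's quasi-likelihood test, 0 had an unadjusted p below 0.05 and 0 were called by DESeq2.

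The 15 genes with the largest change toward GOM also held genes outside these lists. RADX, which binds single-stranded DNA at replication forks, had 2.38, 4.44 and 8.44 TPM in GOM and at most 0.104 in RAD (-7.53 ± 0.43, adjusted p = 3.4e-11). SERPINE3, a member of the serpin family, had 6.67, 24.5 and 35.5 TPM in GOM and 0, 0.162 and 0.810 in RAD (-6.43 ± 0.51). LGR5, the receptor of R-spondins, had 2.04, 5.25 and 11.4 TPM in GOM and at most 0.535 in RAD (-5.07 ± 0.54). All 3 were at or near 0 in RAD. On the other side CBR2, a carbonyl reductase, had 0.598, 1.93 and 11.7 TPM in GOM and 14, 30.8 and 98.7 in RAD (3.6 ± 0.48, adjusted p = 7.4e-06), with no overlap.

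**Figure D3:**
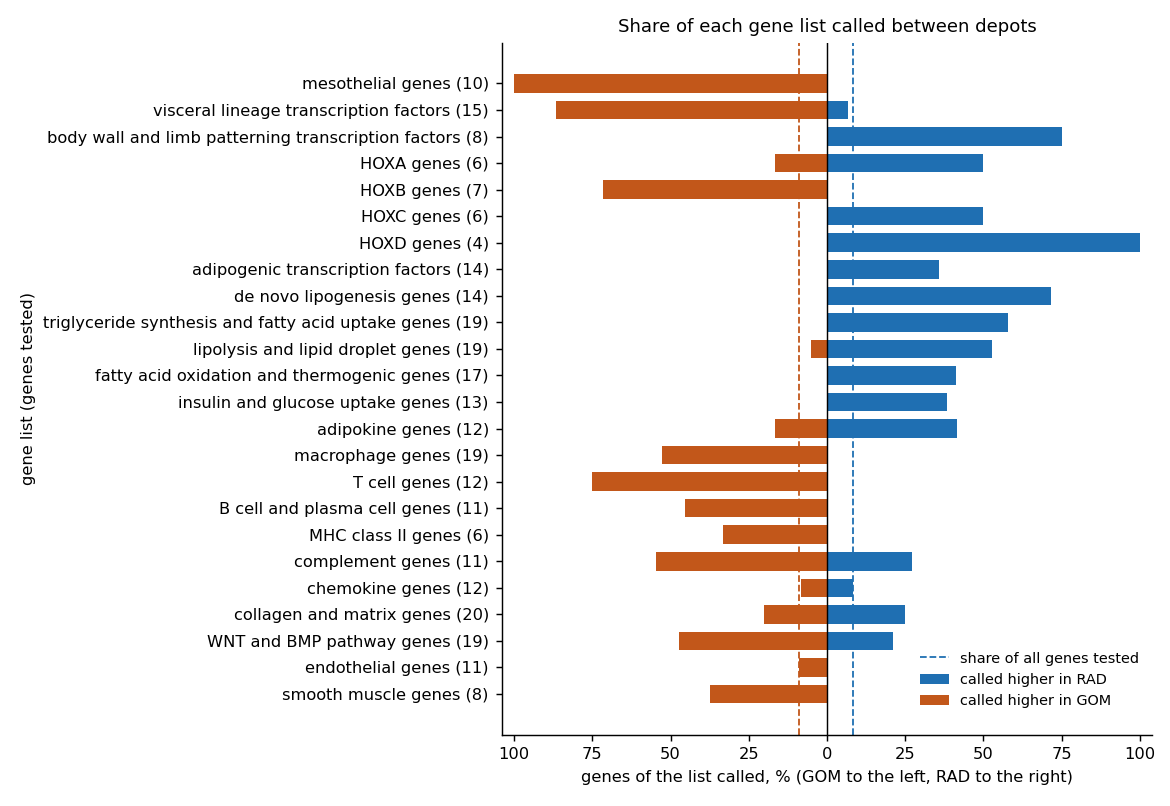
Share of the tested genes of each list that were higher in RAD or in GOM, in percent, with dashed lines at the shares over all genes tested (8.3% and 8.94%). Mesothelial genes, visceral transcription factors and T cell genes lie toward GOM, and HOXD, body wall and fat storage genes toward RAD.

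The A-B index of Hi-C, a score without unit that is positive in compartment A (active chromatin) and negative in compartment B, also differed between the depots. Of 113298 bins of 20 kb, 10637 (9.39%) had a higher index in RAD and 10432 (9.21%) in GOM, with an adjusted p below 0.05 by limma and a difference above 0.75. Of 10389 genes tested for expression with an index at their start, 755 (7.27%) had a higher index in RAD and 517 (4.98%) in GOM. Compartments switched to A in RAD in 714 bins (0.63%) and to A in GOM in 324 (0.286%), where over 80% of the samples of each depot lay in opposite compartments. After quantile normalization of the index these counts were 572 and 523, so the imbalance depended on the scaling. Without GOM replicate 10 they were 814 and 514.

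Index and expression differed in the same direction more often than in opposite ones. Among 952 genes higher in GOM, the start had a higher index in GOM in 189 (19.9%) and in RAD in 50 (5.25%). Among 953 genes higher in RAD, it was higher in RAD in 128 (13.4%) and in GOM in 19 (1.99%). For the 8484 genes without a call, these shares were 6.80% for RAD and 3.64% for GOM. Without Hi-C GOM replicate 8, 210 and 56 of the genes higher in GOM and 130 and 24 of those higher in RAD had a start with an index higher in the same and in the other depot. These are counts over genes, which share bins and libraries, and no test was made of them. The separation of tissue before Hi-C, given above, applies to each such comparison.

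WT1 changed compartment. Its start had an index of 0.47 to 3.25 in GOM (median 2.43) and of -0.93 to 0.68 in RAD (median -0.49), a difference of -2.60 ± 0.30 (adjusted p = 1.4e-06). It lay in compartment A in 100% of GOM samples and 8.33% of RAD samples. MEIS1, with a modest difference in expression, had an index difference of -2.71 ± 0.29 (adjusted p = 6.1e-07), and was in A in 77.8% of GOM samples and in none of RAD. HAND2 lay in compartment B in most samples of both depots, and its median index was -0.46 in GOM and -2.99 in RAD (-2.28 ± 0.24). In all, 8 of 15 visceral transcription factors had a higher index in GOM and 1 in RAD. The exception was FOXF1, with a higher index in RAD (1.31 ± 0.20) and higher expression in GOM. GATA5, whose expression differed far more than that of WT1, lay in A in every sample of both depots, with medians of 4.59 and 4.35 and a difference of -0.44 ± 0.17 that did not pass the limit of 0.75. Of 9 mesothelial genes with an index, 4 had a higher index in GOM, GPM6A by -1.95 ± 0.26 and PKHD1L1 by -1.68.

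On the side of RAD, 4 of 8 body wall factors had a higher index in RAD and 0 in GOM. EN1 had an index of -1.13 to 0.06 in GOM and of 0.27 to 1.78 in RAD (1.52 ± 0.17, adjusted p = 1.2e-06), and lay in A in 11.11% of GOM and 100% of RAD samples. PRRX1 changed from 22.2% to 100% (1.19 ± 0.19). HOX clusters differed in kind: all 3 HOXD genes with an index had a higher one in RAD (0.87 to 1.11), 2 of 6 HOXB genes a higher one in GOM (-0.86 each, in 1 bin), and none of the HOXA and HOXC genes passed. HOXA9 had medians of 2.73 and 2.77. Of the fat genes, FABP4 had an index of 0.59 to 1.62 in GOM and of 2.05 to 3.80 in RAD (1.67 ± 0.20, adjusted p = 1.9e-06). It lay in A in every sample. LPL lay in A in 0 GOM samples and in 58.3% of RAD samples (0.93 ± 0.20), and PPARG, CEBPA and LEP had a higher index in RAD by 1.09, 0.83 and 0.82. For PLIN1 and ADIPOQ the difference (0.57 and 0.18) did not pass.

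Some groups had an index that went apart from expression. Of 12 chemokine genes, 8 had a higher index in RAD, with CCL5 and CCL14 at 2.29 each, and their expression did not pass (-0.35 and -0.41). CCL5 lay in A in 11.11% of GOM and 100% of RAD samples. Many chemokine genes are neighbours on a chromosome, so their bins lie close together. DCN, the matrix proteoglycan decorin, had a higher index in GOM (-2.53 ± 0.32), with 1128 to 3072 TPM in GOM and 690 to 1960 in RAD, a difference of -0.56 ± 0.20 that stayed under the fold limit. COL3A1 had a higher index in GOM (-1.06) and higher expression in RAD, and 4 of 10 B cell genes had a higher index in RAD while 5 of 11 were higher in GOM in expression.

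**Figure D4:**
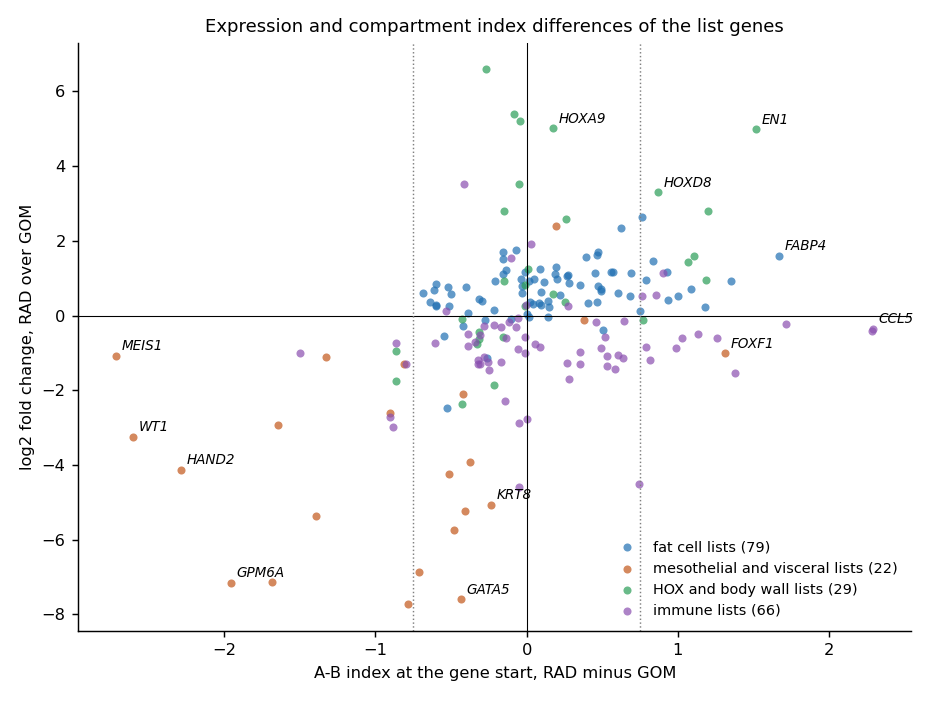
Log2 fold change of expression (RAD over GOM, vertical) against the difference of the A-B index at the gene start (RAD minus GOM, horizontal). Points are 79 fat, 22 mesothelial and visceral, 29 HOX and body wall and 66 immune genes, with dotted vertical lines at an index difference of 0.75 either way. WT1 and MEIS1 lie far to the left and below 0, FABP4 and EN1 to the right and above 0, and GATA5 and HOXA9 nearer an index difference of 0. BARX1, at 0 in RAD, is left out.

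H3K27ac, a mark of active enhancers, was used here as 1 pooled table per depot, from 3 GOM and 2 RAD samples, so its values stand side by side with no test. The tables list 20169 regions over 539 Mb in GOM and 20732 over 465 Mb in RAD, of which 956 and 1211 are marked as super-enhancers, and the summed signal was 78205460 and 57148697. Each gene took the full signal of the regions that lay within 10 kb of it. In 872 of 984 genes higher in GOM, those with signal in both depots, the median log2 ratio (RAD over GOM) was -1.14. It was 0.16 in 877 of 984 genes higher in RAD and -0.03 in 8189 of 8775 others, again with signal in both. At WT1 the signal was 81065 in GOM and 7469 in RAD, and at GATA5 51030 and 50.2. The region at GPM6A had a signal of 52097 in GOM and none was listed in RAD. WT1, GATA5, GATA6, GPM6A, MEIS1 and ALDH1A2 lay in super-enhancers of GOM and in none of RAD. HOXC9 had a signal of 72.2 in GOM and 15681 in RAD, in a super-enhancer of RAD, while the region over HOXA9 had 43848 in GOM and 19306 in RAD. Not every gene followed its expression, since FABP4 had 20646 in GOM and 3616 in RAD.

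The comparison of the depots in WG and WL pigs, which are other animals, shows how far the differences hold on other diets. In 1 fit of 6 groups over 14720 genes, the difference between RAD and GOM was larger in NC than in WG for 494 genes (3.36%) and smaller for 204 (1.39%), and against WL larger for 6 (0.0408%) and smaller for 3 (0.0204%). Here larger means a higher value of RAD over GOM. Without RAD replicates 4, 6 and 10, 17 and 27 genes passed against WG and 3 and 1 against WL. The median share of mitochondria-encoded TPM in the WG and WL groups was 1.55% to 4.82%, as low as in these 3 libraries, and its part in these counts was not tested. The patterning and mesothelial genes named here that passed the limit of detection had the same direction in all 3 groups. WT1 differed by -3.19 in NC, -2.61 in WG and -3.18 in WL in this fit, and GATA5 by -7.58, -7.13 and -9.01. EN1 differed by 5.09, 3.91 and 3.73, HOXA9 by 5.05, 4.18 and 4.81, and BNC1 by -7.70, -8.00 and -9.30. No test of NC against WG or WL passed for these 5 genes. Other patterning and mesothelial genes did pass against WG. CLDN1 differed by -2.55 in NC and -0.96 in WG, HOXC9 by 5.87 and 3.59, and HOXD8 by 3.34 and 2.49. TBX18 passed as well, with a difference in NC minus that in WG of 0.85. HOXD8 also passed against WL, where it differed by 2.07. Without RAD replicates 4, 6 and 10, none of these tests passed.

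Several fat genes had smaller fitted differences in WG, and few passed the test against NC. FABP4 had differences of 1.49, 0.67 and 0.96 in the same order, and NC against WG gave an adjusted p of 0.066. PPARG, at 0.76, 0.72 and 0.70, had nearly the same value in each group. The test against WG passed for 4 of 19 genes of triglyceride synthesis and uptake and 3 of 19 lipid droplet genes, among them ACSL1 (1.71 in NC and 0.11 in WG in this fit, interaction 1.6 ± 0.36, adjusted p = 0.0060) and PLIN1 (1.3 and 0.47, interaction 0.83 ± 0.23, adjusted p = 0.024). Without the 3 RAD libraries the interactions were 1.42 and 0.67 (adjusted p = 0.061 and 0.19). Of the genes named here, CRB2, a regulator of epithelial polarity, and SAMD12 passed against WG also without these libraries (adjusted p = 2.3e-07 and 0.024). In the high library set alone, which holds all WG RAD libraries, the interaction of CRB2 against WG turned from 3.49 to -0.91 (adjusted p = 0.64) and that of SAMD12 was -2.12 (adjusted p = 0.035). CRB2 differed by -4.27 in NC, -7.76 in WG and -8.51 in WL, and SAMD12 by -2.49, -0.99 and -0.69. The RAD medians of CRB2 were 0.231, 0.0189 and 0.0232 TPM in NC, WG and WL, so its interactions rest on few reads. Its GOM medians were 6.69, 8.83 and 14.8 TPM. For the A-B index, the difference was larger in NC than in WG in 10 bins (0.00883%) and smaller in 2 (0.00177%), and against WL larger in 111 (0.098%) and smaller in 300 (0.265%). After quantile normalization these counts were 44 and 52 against WG and 292 and 283 against WL, so neither imbalance held. WT1 had an index difference of -2.08 in WG and -2.55 in WL, and FABP4 of 0.76 and 1.6.

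**Figure D5:**
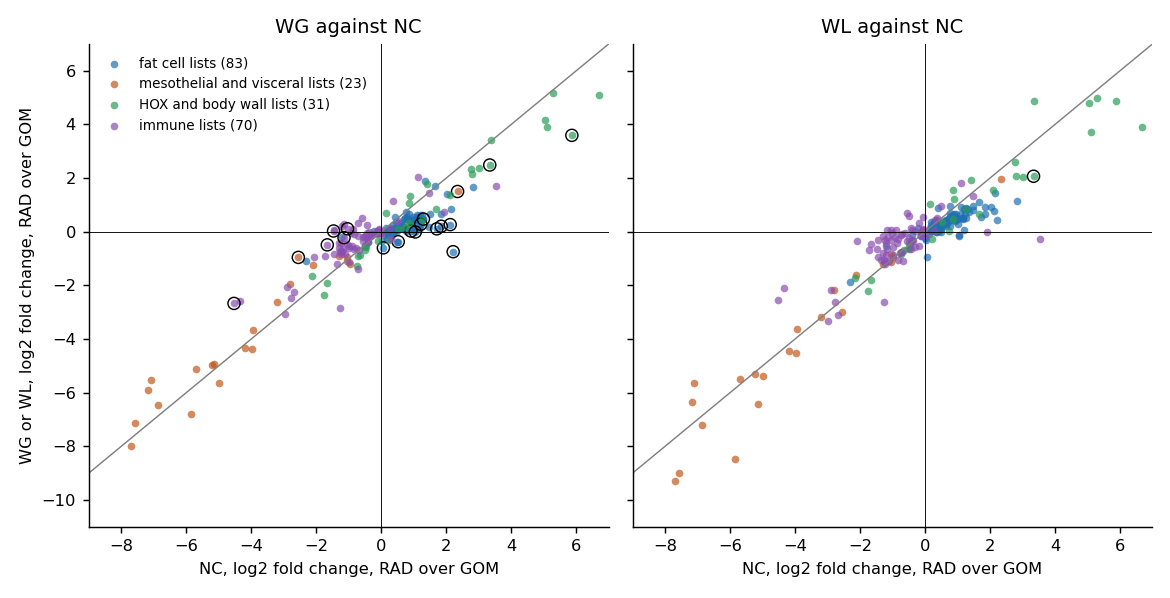
Log2 fold change (RAD over GOM) in NC, horizontal, against that in WG (left) and in WL (right) for 83 fat, 23 mesothelial and visceral, 31 HOX and body wall and 70 immune genes, with circles around genes whose depot difference differed between the diets and a grey line of equality. WT1, GATA5, EN1, HOXA9 and BNC1 lie on the same side of 0 on both axes, and PLIN1 and ACSL1 are at 1.3 and 1.71 in NC and at 0.47 and 0.11 in WG.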

How the data were processed

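RNA of 9 GOM and 12 RAD libraries of NC pigs was depleted of rRNA and sequenced with strand kept. The authors quantified transcripts with kallisto 0.43.0 on Sscrofa11.1 and summed them by gene with tximport. The deposited table holds their estimated counts (18.5% at 0, none of the others whole), which were rounded for the tests, and the deposited TPM values are as the authors computed them. Reads shared by near copies, such as C4A and its paralog, are divided by kallisto and those genes are uncertain. The deposited A-B index is the authors' score from balanced and normalized Hi-C matrices in bins of 20 kb on 18 autosomes, with unknown depth per bin. The ROSE tables hold the authors' H3K27ac signal over enhancer regions, pooled per depot, and a gene took regions within 10 kb. In the count table and in the index table, 9 columns matched no deposited sample (2 of NC GOM in each) and were not used. Columns of lncRNA and TUCP tables served only for the library set. No pair of libraries agreed within sampling noise.

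Genes above 0.5 TPM in at least 80% of the libraries of a depot were tested with edgeR 4.0.16 (TMM, quasi-likelihood, library set as a term) in R 4.3.3, with Benjamini-Hochberg adjustment over all genes tested, and called where the adjusted p was under 0.05 with a change of over 1.5 times. Index bins were tested with limma 3.58.1 and called at an adjusted p below 0.05 and a difference above 0.75. A gene took the bin of its start in the RefSeq annotation of Sscrofa11.1. The difference between depots was compared between diets in 1 edgeR fit of 6 groups. Of 21280 genes in the table, 14821 had a symbol. Named were the members of gene lists that passed the test or whose index did. So were the 15 genes per direction with the largest change. These had a mean TPM of at least 5 in the higher depot and the same direction in both library sets. Up to 8 genes per comparison of diets were named as well. FRAT1, G0S2, PGLYRP2, NANOS1 and MRPL57 came from the last. A few genes and a sequence are not reported here. The members and lists were chosen with earlier results of these data known. The replicate numbers were not taken to pair the samples. The alternatives were DESeq2 1.42.0, no filter on low genes, no library set, the share of TPM in its place, each set alone, a replicate block, quantile normalization of the index and other limits. Leaving out the 3 RAD libraries of low mitochondrial share, and each library in turn, was added after seeing the data. Both scripts of statistics were tested on simulated data. Tables were handled in Python 3.11.15 with pandas 2.3.3, numpy 2.4.6, scipy 1.17.1 and matplotlib 3.10.9.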

Additional observations from a re-analysis of the deposited data

Results flagged for a closer look

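In groups of 9 libraries, a library was picked out where its gap to the nearest other, divided by the range of the group, passed Dixon's limit. Chance passes it in about 1 of 20 groups of normally distributed values. TPM was used without a log, so the rate by chance is not known for it. Of the 139 genes named, 17 had such a GOM library, and of 47 genes checked for the A-B index, 0 had such a sample. RAD groups of 12 were not checked. GOM replicate 5 held 8 of the 17. It had the highest GATA5 (29.9 TPM, with a group median of 9.95), THRSP (1397, median 480), CFI (522, median 153), C3 (1515, median 458), CXCL2 (143, median 55.9), FN1 (4326, median 1106) and MRPL57 (18.6, median 5.23), and the lowest GPIHBP1 (54.2, median 115). GOM replicate 2 had the highest TBX18 (6.51 TPM, median 2.33), HOXD3 (3.45, median 1.56) and LPL (2149, median 966). GOM replicate 6 had the highest JCHAIN (2311 TPM, median 103) and NR2F2 (138, median 74.5). GOM replicate 8 had the highest TIMD4 (54.1 TPM, median 12.9) and CBR2 (11.7, median 1.93), replicate 7 the highest NANOS1 (3.81, median 0.668), and replicate 3 the highest NKX3-2 (9.77, median 3.53).

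For 28 of the genes named, the difference between the depots (log2, RAD over GOM) was itself different between NC and WG, by the test of the interaction in edgeR with an adjusted p below 0.05. Of these, 12 had been named for the size of their interaction, so the count is in part set by that choice. Over all genes 3.36% were larger and 1.39% smaller in NC. Each value that follows is the difference in NC minus that in WG. Among patterning and epithelial genes these were CLDN1 (-1.59), TBX18 (0.85), HOXC9 (2.27), HOXD8 (0.85) and CRB2 (3.49). Among fat genes they were CEBPA (1.86), ELOVL5 (0.89), PLIN1 (0.83), CIDEC (0.94), ACSL1 (1.6), DGAT2 (1.64) and G0S2 (2.96), which inhibits the first lipase of lipolysis. Among immune and matrix genes they were JCHAIN (-1.86), BANK1 (-0.92), C1QB (-1.17), FN1 (-1.66), COL12A1 (-0.78), COL22A1 (2.28) and PGLYRP2 (2.58). The others were SERPINE3 (2.03), CBR2 (1.71), NANOS1 (3.59), MRPL57 (3.03), FRAT1 (2.47), CYP2E1 (2.32), NAT8L (1.67), MEGF6 (-1.25) and SAMD12 (-1.5). Without RAD replicates 4, 6 and 10, 2 of the 28 still passed: CRB2, which was near 0 TPM in RAD in each diet, and SAMD12. All 28 then had the same sign, 20 with at least 75% of their size, and 5 had under 50%: CEBPA, NANOS1, MRPL57, G0S2 and COL22A1. Without RAD replicate 7, 27 passed, and CYP2E1 fell to 0.61 (adjusted p = 0.58). In the high library set alone SAMD12 passed (adjusted p = 0.035), 26 had the same sign, and CRB2 (-0.91, adjusted p = 0.64) and SERPINE3 (-0.12) turned. Against WL, 5 genes passed: HOXD8 (1.27), CRB2 (4.24), NAT8L (2.57), MEGF6 (-2.39) and SAMD12 (-1.79), and of these CRB2 still passed without the 3 libraries (adjusted p = 1.6e-05), but was at 0.61 (adjusted p = 0.84) in the high set alone.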

How the results depend on the processing

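No gene called in expression was called in the opposite direction under any alternative. The counts of genes higher in RAD and in GOM were 1393 and 1351 without the library set, 1164 and 1147 with the share of TPM in its place, 785 and 885 in the low set alone, 74 and 316 in the high set alone (2 GOM libraries), 489 and 773 at a fold above 2, 1285 and 1413 by DESeq2, and 1246 and 1384 without the filter on low genes. Leaving out each library in turn gave 901 to 1240 in RAD and 995 to 1336 in GOM. Of the 139 genes named, 130 were called, and 115 in every such comparison. Most were named because they were called, so these counts are in large part set by that choice and do not describe all genes called. G0S2 turned direction in the low set alone (-0.026, adjusted p = 0.98). In the high set alone 72 named genes lost their call. Index bins higher in RAD and GOM were 9921 and 10190 after quantile normalization, 9689 and 8914 at an adjusted p below 0.01 and 17637 and 16092 at a difference above 0.5, and 9738 to 11684 and 9007 to 11966 with 1 sample left out. Without Hi-C GOM replicate 8 they were 11684 and 11966. Bins of high frequency of compartment A in 1 depot and low in the other were 1408 and 792, 714 and 324 at limits of 80% and 20%, and 1467 to 1776 and 813 to 1149 with 1 sample left out. Switches to A in RAD and in GOM became 572 and 523 after quantile normalization. With 1 sample left out, where fewer samples have to agree, they were 729 to 992 and 326 to 514 (814 and 514 without GOM replicate 10). Genes with a larger and a smaller difference in NC than in WG were 11 and 7 in the high set alone, 17 and 27 without RAD replicates 4, 6 and 10, and 583 and 232 without RAD replicate 7, and without the library set 285 were larger. Against WL they were 0 and 0 in the high set alone, 3 and 1 without the 3 libraries, and 5 and 3 without RAD replicate 7, and without the library set 5 were smaller. Index bins that differed between NC and WG became 44 and 52 after quantile normalization, and those larger in NC than in WL 292. The cause was not tested.

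With the replicate number as a block, 1174 and 1400 genes and 10629 and 9446 bins were called, 937 and 1061 of the genes being among the 1169 and 1259 called without it, and 9 named genes lost their call. Correlations of same-numbered libraries were 0.025 to 0.421 (median 0.217, against -0.0192 for other numbers), 4 of 9 libraries correlated best with their own number, and those of the index were -0.257 to 0.194. Not every pair passed 0.1 and the labels tie no number to a pig, so the numbers were not taken as pairs, although depots of the same pigs may be related. Depth limited low genes most: values under 0.5 TPM rest on few reads.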
